A study of Homo sapiens with 12 samples.

Results

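The proteasome is the large protease complex that degrades ubiquitin-tagged proteins. Its 20S core is a barrel of outer rings of alpha subunits and inner rings of beta subunits, and 3 of the beta subunits cut peptide bonds. A 19S cap binds and unfolds substrates with a ring of ATPases and a set of non-ATPase subunits. In blood cells and after interferon, PSMB8, PSMB9 and PSMB10 replace the constitutive catalytic subunits PSMB5, PSMB6 and PSMB7 to form the immunoproteasome, and PSME1 and PSME2 form an alternative cap. When proteasome activity is lost, the transcription factor NFE2L1 escapes degradation and is known to switch on proteasome subunit genes together. The expression of these genes was examined in 12 RNA-seq libraries of SHI-1, an established acute myeloid leukemia cell line that carries the MLL-AF6 fusion. The genes were chosen by name, as every gene called PSM with a letter from A to G and a number that had a value of at least 10 in at least 3 of the 12 libraries, with POMP and NFE2L1 added, which gave 49 of the 14866 genes listed.

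SHI-1 cells were exposed for 16 h to DMSO, to 0.3 µM disulfiram with 1 µM copper (DSF), to 5 µM niclosamide (NSM) or to the drugs together (DSF+NSM), with 3 libraries from independent experiments in each group. Disulfiram is an alcohol-aversion drug that forms an active complex with copper, and niclosamide is an antihelminthic. Whether the DMSO and NSM cultures also received copper is not given in the sources used here. Every library comes from 1 cell line, and messenger RNA was selected with oligo-dT, so the values describe transcripts and not proteasome activity. In bulk RNA, fewer cells of a kind and less RNA per cell cannot be told apart.

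All 49 genes passed the filter on low values, among 13502 genes tested. They comprise 7 alpha subunits and the testis form PSMA8, 7 constitutive beta subunits, 3 immunoproteasome beta subunits, 6 ATPases and 11 non-ATPase subunits of the 19S cap, 3 assembly chaperones of the cap (PSMD5, PSMD9, PSMD10), 5 assembly chaperones of the core (PSMG1 to PSMG4 and POMP), 4 activators (PSME1 to PSME4), the inhibitor PSMF1 and NFE2L1. The 31 alpha, beta, ATPase and non-ATPase subunits other than PSMA8 and the immunoproteasome forms are called the constitutive subunits here. A further 4 listed genes whose names run on after the number, among them PSMC3IP, were not counted as members.

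Promoter windows from 250 bases before to 50 bases after the start were found in RefSeq (GRCh38.p14) for 43 members, in 53 windows. PSMA7, PSMB1, PSMB6, PSMB7, PSMD4 and PSMG3 had none. The letters GAAANNGAAA, searched on both strands as the repeat typical of interferon response elements, were in 7 of the 53 windows (13.2%), beside 3.57% of all 35116 windows. They are shown because this set holds immunoproteasome genes beside members that moved otherwise. Each line is read 5′ to 3′ on the strand of the gene, with the match in capitals, and PSMB8 and PSME1 hold it on the opposite strand.
PSMB8, chr6:32844032-32844061, minus strand: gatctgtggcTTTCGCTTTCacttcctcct
PSMB10, chr16:67936852-67936881, minus strand: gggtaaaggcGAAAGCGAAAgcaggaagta
PSME1, chr14:24136189-24136218, plus strand: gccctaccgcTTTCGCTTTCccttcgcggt
PSME2, chr14:24146619-24146648, minus strand: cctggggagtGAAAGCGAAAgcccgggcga
PSMG4, chr6:3258904-3258933, plus strand: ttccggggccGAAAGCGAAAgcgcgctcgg
PSMB4, chr1:151399495-151399524, plus strand: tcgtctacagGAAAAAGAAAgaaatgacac
PSMA4, chr15:78540155-78540184, plus strand: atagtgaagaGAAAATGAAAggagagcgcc

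The letters TGACNNNGC, the core of antioxidant response elements that NFE2L1 and its relatives bind, were in 15 of the 53 windows (28.3%), beside 13.3% of all windows, and in 7 of the 32 windows of constitutive subunits (21.9%). The other windows with a match were those of PSMB9, PSMD5, PSMD9, PSME1, PSME2, PSME4, PSMG1 and PSMG2. The letters are shown for the 7 constitutive subunits only, PSMD3 having a pair of matches.
PSMA4, chr15:78540650-78540678, plus strand: gtgggcacgaTGACTCTGCaccgcctcct
PSMB3, chr17:38752627-38752655, plus strand: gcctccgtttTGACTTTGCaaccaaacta
PSMC4, chr19:39971182-39971210, plus strand: acagaggccgGCTTGGTCActatggagga
PSMC5, chr17:63827654-63827682, plus strand: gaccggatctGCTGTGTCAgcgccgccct
PSMD1, chr2:231056896-231056916, plus strand: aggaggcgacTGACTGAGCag
PSMD3, chr17:39980760-39980788, plus strand: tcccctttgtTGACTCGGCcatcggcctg
PSMD3, chr17:39980830-39980856, plus strand: gtttgcagctGCTCCGTCAtcgtgcgg
PSMD12, chr17:67366724-67366752, minus strand: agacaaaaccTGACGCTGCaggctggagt

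The deposited values are counts scaled by the authors, and their sum per library, in units of 1000000, was 13.96 to 14.4 with DMSO, 14.9 to 15.3 with DSF, 16.5 to 17.5 with NSM and 22.7 to 25.6 with DSF+NSM. The value of a single read gives an estimated depth per library of 10.2 to 19.03 in the same units of reads. When every library was scaled to the same sum, the middle gene of all those tested shifted on the log2 scale against DMSO, from 0.05 to -0.05 for DSF, from 0.01 to -0.25 for NSM and from 0.03 to -0.74 for DSF+NSM, so counts of genes that rose in the combination depend on this choice and are given under both scalings. The 49 genes made up 0.785% ± 0.019 of the sum under DMSO, 0.714% ± 0.010 under DSF, 0.567% ± 0.029 under NSM and 0.764% ± 0.009 under DSF+NSM (SD, n = 3). NSM replicate 3 stood apart from its group, with rank correlations of 0.939 and 0.950 to the other NSM libraries, against at least 0.980 within each other group. All 7 myeloid markers were detected, and their sum was 63507 to 72341 in DMSO, 40971 to 47783 in DSF, 22910.0 to 31564 in NSM and 29188 to 31312 in DSF+NSM. Most of this sum was MPO, at 54161.5 to 62640 in DMSO and 14453.5 to 18630 in NSM, and the markers did not move together. In NSM, CD33, MPO, LYZ, CSF1R and CEBPA lay below DMSO, and SPI1 and ITGAM above it. In DSF, MPO and LYZ lay below DMSO, CD33, SPI1, CSF1R and ITGAM above it, and CEBPA overlapped. The 4 B-lymphoid markers, of which MS4A1 was at 0 throughout, summed to 28.7 to 34.8 in DMSO and 33.8 to 47.3 in DSF, and reached 212 in NSM replicate 2 and 639.6 in DSF+NSM replicate 1. The 3 T-lymphoid markers summed to 97.2 to 192 over all libraries. The part of these differences in the results was not tested.

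The constitutive subunits moved in opposite directions under niclosamide alone and under the combination, as scaled by the authors. In DSF+NSM against DMSO, 26 of the 31 rose and 0 fell, beside 28.3% and 24.5% of all genes tested. With every library scaled to the same sum, 5 rose and 6 fell, beside 11.4% and 56.1% of all genes tested. In NSM against DMSO, 16 fell and 3 rose, beside 23.7% and 25.4% of all genes tested. Equal sums gave 23 that fell and 1 that rose there, beside 33.4% and 16.4%. Disulfiram alone gave 7 that fell and 2 that rose, beside 5.95% and 11.9%, and 11 and 1 with equal sums, beside 9.24% and 8.95%. Relative to all genes tested, whose median was subtracted, the median constitutive subunit changed by 0.86 in DSF+NSM, by -0.38 in NSM and by -0.03 in DSF on the log2 scale. With equal sums PSMC1, PSMC2, PSMC4, PSMD7 and PSMD11 still rose in DSF+NSM, PSMA3, PSMA4, PSMA5, PSMA6, PSMB2 and PSMC3 fell, and the other constitutive subunits passed no test, so each rise given below for DSF+NSM against DMSO in another constitutive subunit holds under the scaling of the authors and not with equal sums.

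**Figure D1:**
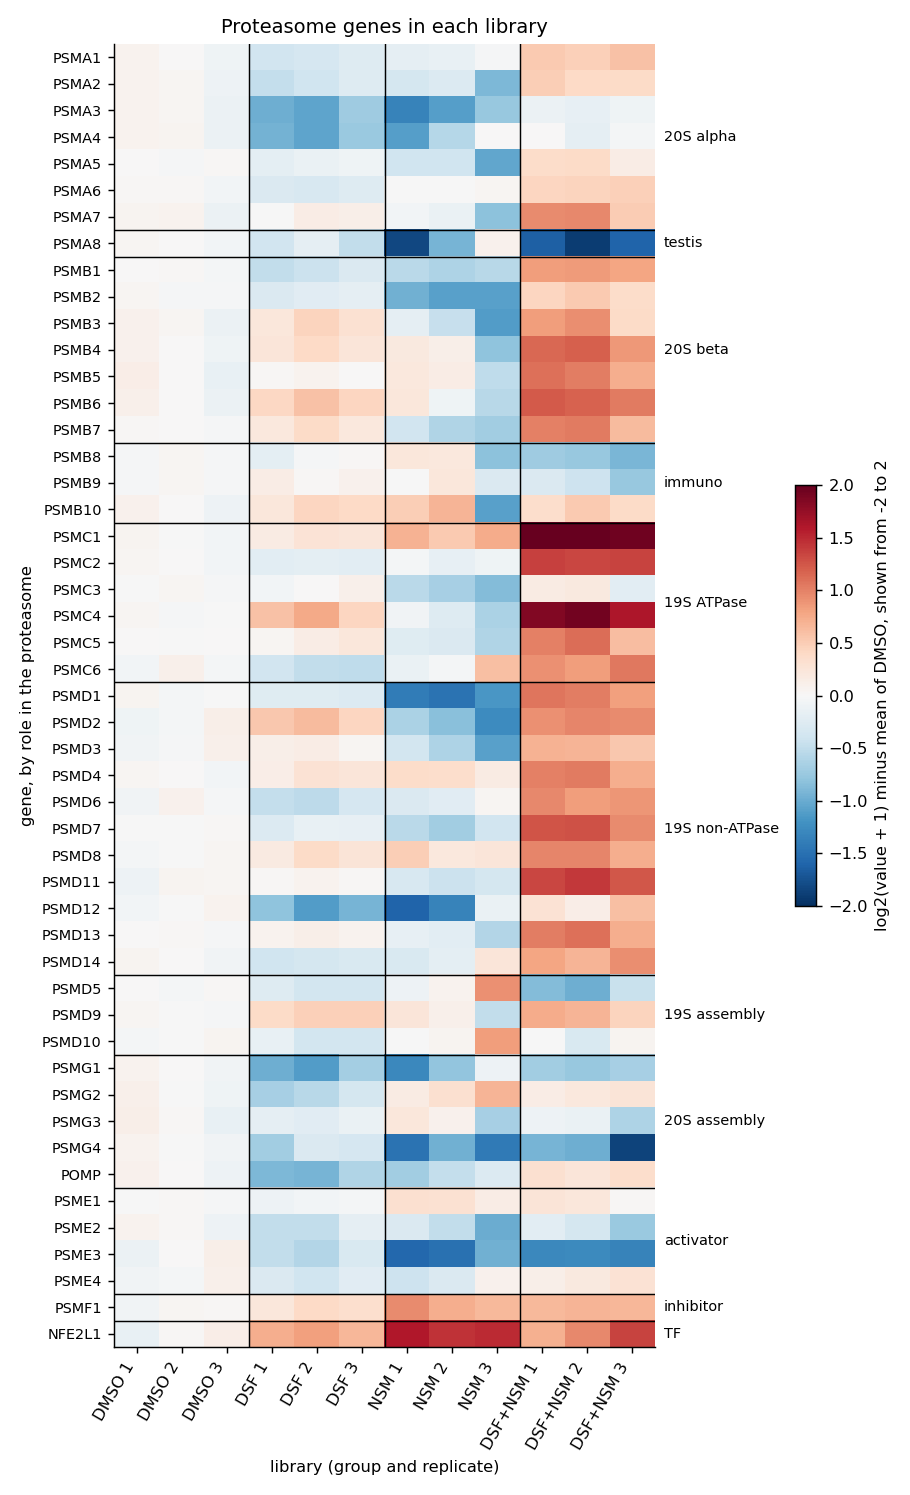
Each row is a gene, ordered by role, and each column is a library; the color gives log2(value + 1) minus the mean of the 3 DMSO libraries, shown from -2 to 2. Most 20S and 19S rows are above the DMSO level in the 3 DSF+NSM columns, while PSMB8, PSMB9, PSME3, PSMG4 and PSMD5 are below it. The scaling is that of the authors; with equal sums 5 constitutive subunits rose and 6 fell in DSF+NSM.

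Over all 49 genes, 29 rose and 7 fell in DSF+NSM against DMSO, which is 59.2% and 14.3% of them beside 28.3% and 24.5% of all genes tested. With equal sums the same comparison gave 5 that rose and 20 that fell, beside 11.4% and 56.1% of all genes tested. In NSM against DMSO, 6 rose and 21 fell (12.2% and 42.9%), beside 25.4% and 23.7% of all genes tested, and equal sums gave 3 and 30, beside 16.4% and 33.4%. In DSF against DMSO, 3 rose and 10 fell (6.12% and 20.4%), beside 11.9% and 5.95%, and equal sums gave 2 and 15, beside 8.95% and 9.24%. The share that fell was thus above the background in both single treatments, and the share that rose was above it in the combination under the scaling of the authors.

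The disulfiram count rested on few libraries. The 13 calls dropped to 3 without DMSO replicate 1, DMSO replicate 2 or DSF replicate 2, to 4 without DSF replicate 1 and to 7 without DMSO replicate 3, and rose to 30 without NSM replicate 3, which enters only through the shared estimate of spread. A fit of the DSF and DMSO libraries alone called 36. Calls among all 13502 genes tested moved as well. They numbered 2405 with all libraries, 5551 without NSM replicate 3 and 7289 in the fit of DSF and DMSO alone. Without DMSO replicate 1, DMSO replicate 2 or DSF replicate 2 they numbered 1157, 1058 and 911. The calls of PSMA3, POMP and NFE2L1 were kept whichever library was left out. In NSM against DMSO, 17 members were called without DMSO replicate 1, 18 without DMSO replicate 2 and 30 without NSM replicate 3. Of all genes tested 5483, 5421 and 8075 were called in these fits, and 6635 with all libraries. The constitutive subunits gave 3 that rose and 16 that fell without NSM replicate 3.

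**Figure D2:**
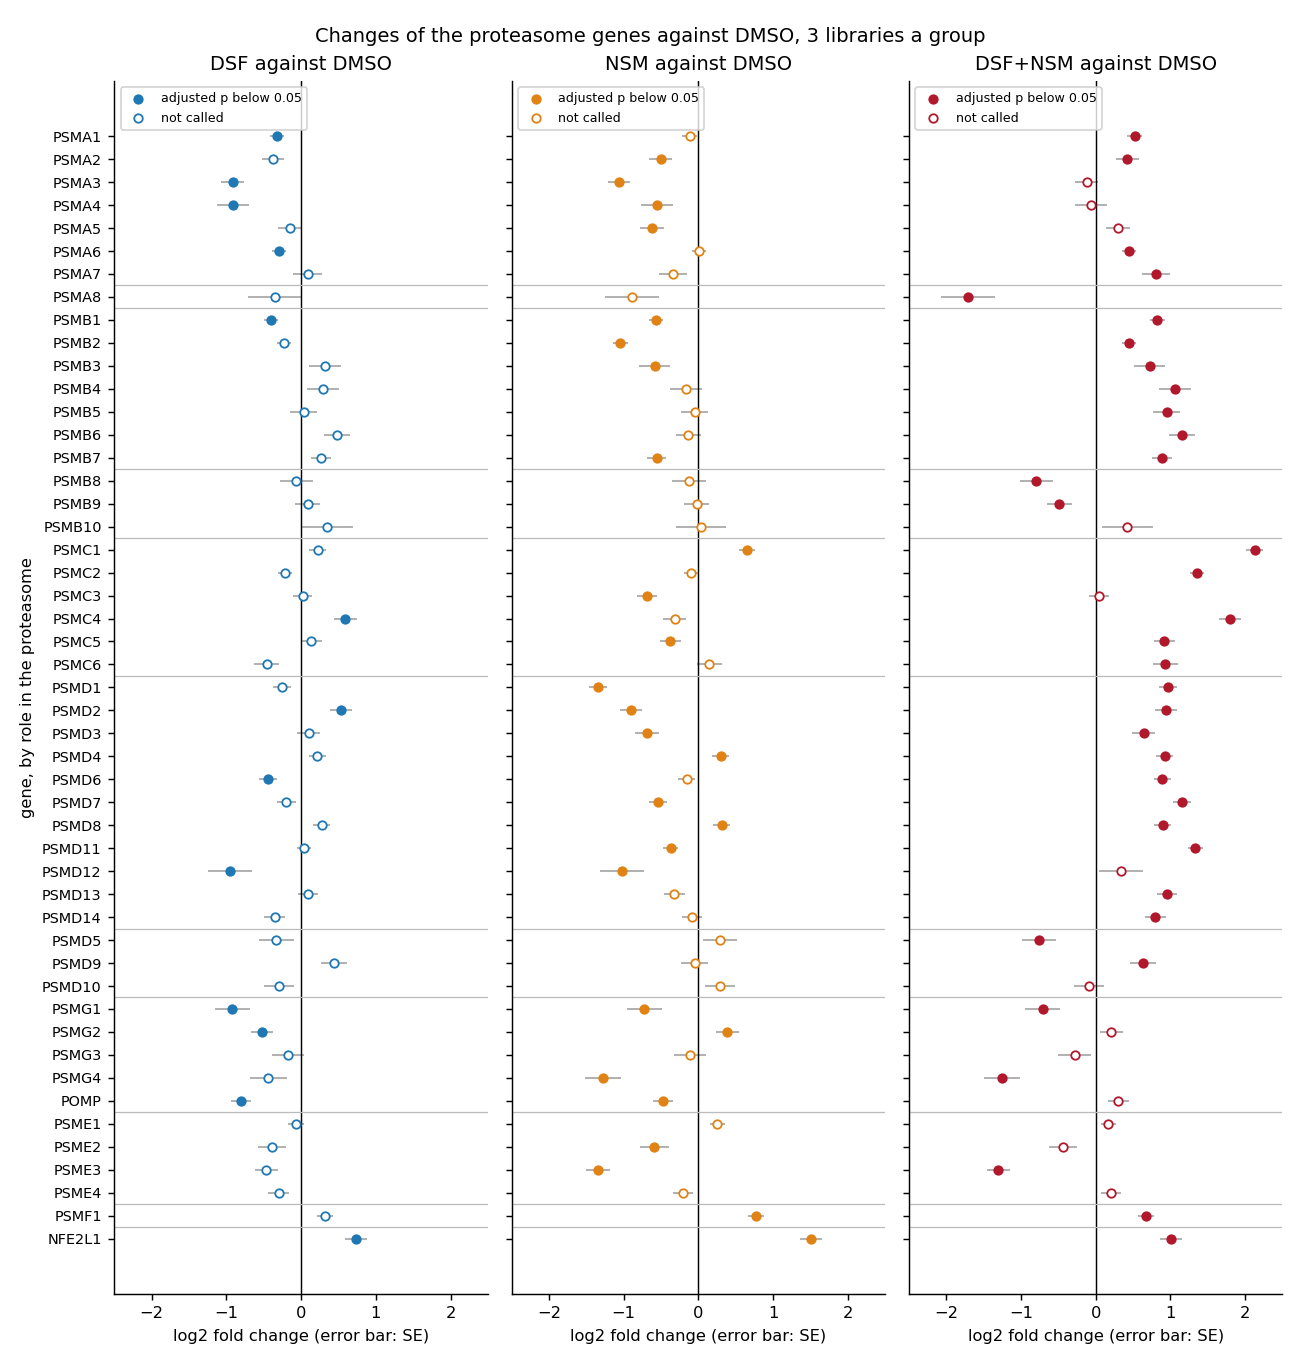
Points give the log2 fold change of each gene against DMSO on the log2(value + 1) scale, with the standard error as a bar, for DSF, NSM and DSF+NSM (3 libraries a group); filled points have an adjusted p below 0.05. The 7 constitutive beta subunits lie between 0.44 and 1.15 in DSF+NSM and PSMB8 and PSMB9 at -0.79 and -0.49; with equal sums no beta subunit rose, PSMB2 fell (-0.34), and the other 6 lay between -0.064 and 0.37 and passed no test.

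Among the alpha subunits of the 20S core, which form its outer rings and gate the entry, 4 of 7 rose in DSF+NSM against DMSO and 0 fell. Of all genes tested 28.3% rose and 24.5% fell. With equal sums 0 alpha subunits rose and 4 fell, beside 11.4% and 56.1% of all genes tested. PSMA7 changed most. Its values were 4023, 4049 and 3546 in DMSO, 3838, 4284 and 4198 in DSF, 3712, 3536 and 2189 in NSM and 7454, 7494 and 5509.9 in DSF+NSM. The combination libraries were all above the 9 others, a rise of 0.80 ± 0.19 (SE, adjusted p = 0.0033). PSMA4 had the smallest change in this comparison, with 4656, 4619.6 and 4117 in DMSO and 4471, 3935 and 4360.1 in DSF+NSM, and these libraries overlapped. In DSF its values were 2318, 2139 and 2676, below all DMSO libraries, a fall of 0.91 ± 0.21 (adjusted p = 0.0129) that was lost without DMSO replicate 1, DMSO replicate 2 or DSF replicate 2. In NSM it was 2079, 3004 and 4479, with NSM replicate 3 the highest, and the call there (-0.55 ± 0.21, adjusted p = 0.0477) was lost without any single library other than NSM replicate 3. PSMA3 fell in each single treatment, by 0.92 ± 0.15 in DSF and by 1.07 ± 0.15 in NSM (adjusted p = 0.00164 and 0.000108), and was at -0.12 ± 0.15 in the combination (adjusted p = 0.522), or -0.91 with equal sums, which passed the test.

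PSMA8 encodes the alpha subunit known from testis and was the member with the lowest level per kilobase in all groups. Its values were 90.5, 88.6 and 84.7 in DMSO, 67.5, 77.3 and 62.3 in DSF, 24.1, 45.8 and 92.9 in NSM and 27.6, 22.8 and 28.3 in DSF+NSM. The combination lay below DMSO without overlap, a fall of 1.71 ± 0.37 (adjusted p = 0.00177). NSM replicate 3 was the highest of the 12 libraries, and without it the fall in NSM was 1.37 and passed the test.

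All 7 constitutive beta subunits rose in DSF+NSM against DMSO, by 0.44 to 1.15, beside 28.3% of all genes tested. With equal sums 0 rose and 1 fell, beside 11.4% and 56.1%. In NSM 4 of 7 fell, beside 23.7% of all genes tested. PSMB2, a beta subunit without catalytic activity, had 4446, 4251 and 4227 in DMSO, 3521, 3666 and 3816 in DSF, 2211, 2033 and 2023 in NSM and 5812, 6198 and 5569 in DSF+NSM. No group overlapped with another. PSMB2 fell by 1.04 ± 0.10 in NSM (adjusted p = 4.82e-06) and rose by 0.44 ± 0.10 in the combination (adjusted p = 0.00213), where equal sums gave a fall of 0.34.

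The catalytic subunits come in pairs, and the pairs separated in the combination. PSMB5, which carries the chymotrypsin-like activity, had 1658, 1513 and 1364 in DMSO, 1537, 1581 and 1517 in DSF, 1743, 1672 and 1058 in NSM and 3248, 3072 and 2491 in DSF+NSM. Its immunoproteasome counterpart PSMB8 had 1761, 1843 and 1769 in DMSO, 1559, 1769 and 1827 in DSF, 2087, 2084 and 1015 in NSM and 1091, 1064 and 949 in DSF+NSM. PSMB5 was above, and PSMB8 below, every DMSO and DSF library in the combination. PSMB5 rose by 0.95 ± 0.18 (adjusted p = 0.000764) and PSMB8 fell by 0.79 ± 0.22 (adjusted p = 0.0101) against DMSO.

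PSMB6, which carries the caspase-like activity, had 904, 849 and 773 in DMSO, 1119, 1268 and 1137 in DSF, 985, 795 and 574 in NSM and 1971, 1915 and 1732 in DSF+NSM. PSMB9, its counterpart, had 445, 463 and 444 in DMSO, 499.7, 459.7 and 479 in DSF, 449.6, 528 and 367 in NSM and 368, 338 and 266 in DSF+NSM. The combination was above all other libraries for PSMB6 and below the DMSO and DSF libraries for PSMB9. PSMB6 rose by 1.15 ± 0.17 (adjusted p = 0.00013) and PSMB9 fell by 0.49 ± 0.16 (adjusted p = 0.0249), a call that was lost without any single DMSO library and without DSF+NSM replicate 3 (-0.35).

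PSMB7, which carries the trypsin-like activity, had 2905, 2862 and 2810.5 in DMSO, 3305, 3732 and 3305 in DSF, 2184, 1882 and 1773 in NSM and 5731, 5862 and 4424 in DSF+NSM. PSMB10 had 785, 747 and 694 in DMSO, 869, 995 and 976 in DSF, 1048, 1194 and 350.3 in NSM and 949, 1070.1 and 966 in DSF+NSM. PSMB7 rose by 0.89 ± 0.13 in the combination (adjusted p = 0.000115) after a fall of 0.56 ± 0.13 in NSM (adjusted p = 0.00365). PSMB10 was 0.42 ± 0.34 above DMSO (adjusted p = 0.315), with all combination libraries above DMSO under the scaling of the authors, and was -0.36 with equal sums, which passed no test either. NSM replicate 3 sets the spread of PSMB10, and without that library the change of 0.42 passed the test.

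On the log2 scale the ratio of PSMB8 to PSMB5 was 0.25 ± 0.15 with DMSO, 0.15 ± 0.12 with DSF, 0.17 ± 0.20 with NSM and -1.499 ± 0.09 with DSF+NSM (SD, n = 3). The ratio of PSMB9 to PSMB6 was -0.90 ± 0.11, -1.29 ± 0.15, -0.79 ± 0.30 and -2.54 ± 0.14 in the same order. That of PSMB10 to PSMB7 was -1.95 ± 0.07, -1.86 ± 0.09, -1.35 ± 0.88 and -2.41 ± 0.20. Such a ratio of genes within a library does not depend on the scaling. For each of these 3 ratios the DSF+NSM libraries lay below the DMSO libraries without overlap, and the exact two-sided permutation test gave p = 0.1 before and after adjustment over the 3, the smallest p that 3 against 3 libraries allow.

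**Figure D3:**
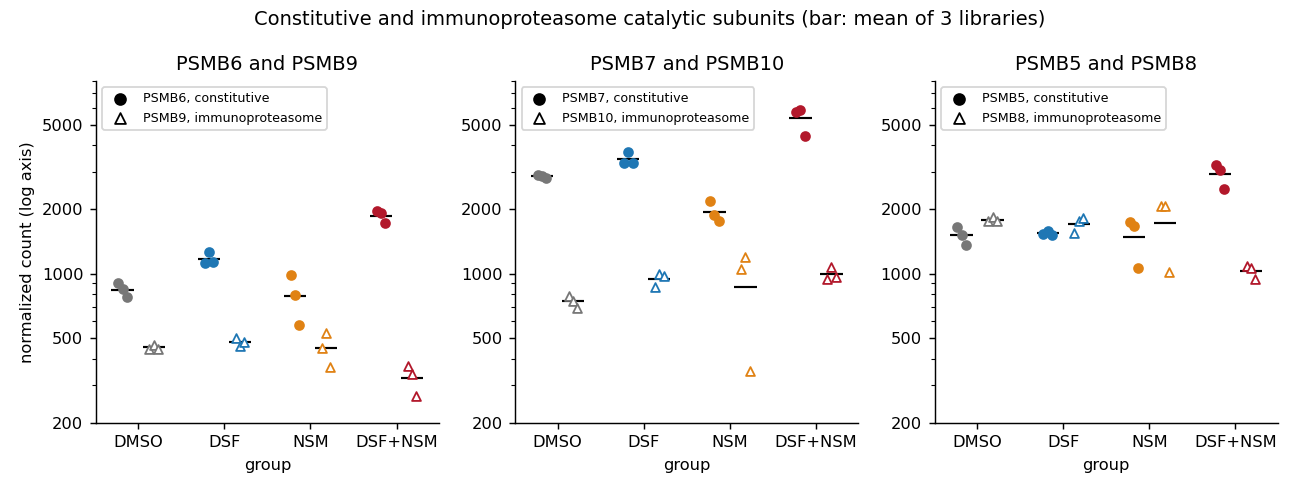
Normalized counts on a log axis in each library of the 4 groups, with filled circles for the constitutive subunit, open triangles for its immunoproteasome counterpart and a bar for the mean of 3 libraries. PSMB5, PSMB6 and PSMB7 are highest in DSF+NSM under the scaling of the authors (with equal sums PSMB6 and PSMB7 are at -0.01 and -0.06 against DSF), and PSMB8 and PSMB9 lie below their DMSO levels there.

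Beside the immunoproteasome genes, 12 interferon and MHC class I genes that are commonly induced with them were listed. In NSM against DMSO 7 rose and 0 fell, in DSF+NSM 4 rose and 1 fell, and in DSF 1 rose and 1 fell. The shares of all genes tested given above are the background of these counts. They were 25.4% and 23.7% for NSM, 28.3% and 24.5% for DSF+NSM and 11.9% and 5.95% for DSF. With equal sums 5 rose and 2 fell in NSM, 0 rose and 6 fell in DSF+NSM, and 0 rose and 1 fell in DSF. Of all genes tested 16.4% and 33.4%, 11.4% and 56.1%, and 8.95% and 9.24% then did. TAP1, a subunit of the peptide transporter whose gene lies next to PSMB9, rose by 1.24 ± 0.24 in NSM (adjusted p = 0.00118), with 2273, 2081 and 1060 against 717, 713 and 749.9 in DMSO. HLA-E, a class I molecule, rose by 1.54 ± 0.12 in NSM and by 0.88 ± 0.12 in DSF+NSM (adjusted p = 1.1e-06 and 5.03e-05). The rise of HLA-E in DSF+NSM was 0.09 with equal sums and did not pass the test. ERAP1, which trims peptides for class I molecules, was the 1 gene of this list that fell in the combination, by 0.89 ± 0.25 (adjusted p = 0.00887). The interaction of the drugs is defined with the direct comparisons. It passed the test below 0 for 4 of the 12 genes (8 with equal sums) and above 0 for 0 under both scalings. Of all genes tested 14.0% passed it below 0 (28.6% with equal sums).

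The 19S ATPases, which unfold substrates, held the largest rise of all members. PSMC1 had 4389, 4182 and 4049 in DMSO, 4686, 5067 and 4967 in DSF, 6789, 6019.6 and 7047 in NSM and 19549.7, 19645 and 16197 in DSF+NSM. Each treated group lay above DMSO without overlap, and the combination was far above all others. The change was 2.13 ± 0.11 in DSF+NSM (a 4.37-fold rise, adjusted p = 2.89e-08) and 0.65 ± 0.11 in NSM (adjusted p = 0.000446). PSMC1 (ENSG00000100764, chr14:90256527-90275429, plus strand of GRCh38) shares 4667 exon bases with NRDE2 on the other strand, and the library kit does not mark strand. NRDE2 rose by 2.09 in the same comparison, from a mean of 446 to 1931, so reads of these genes cannot be told apart in the shared bases. PSMC1 also has 13 named pseudogenes.

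PSMC3 was the ATPase that changed least in the combination. Its values were 3536, 3656 and 3502 in DMSO, 3443, 3594 and 3809.7 in DSF, 2445, 2259 and 1948 in NSM and 3999.9, 4063 and 3068 in DSF+NSM. It fell by 0.69 ± 0.13 in NSM (adjusted p = 0.000931) and was 0.05 ± 0.13 from DMSO in DSF+NSM (adjusted p = 0.786). The other 4 ATPases rose in the combination, from PSMC5 at 0.91 to PSMC4 at 1.80. PSMC4 was also 1 of the 2 constitutive subunits that rose in DSF (0.59 ± 0.15, adjusted p = 0.0189), a call lost without any single DMSO library and without DSF replicate 1 or 2. The other was PSMD2, at 0.53 ± 0.15 (adjusted p = 0.0262), lost without DMSO replicate 1 or 2 and without DSF replicate 1 or 2.

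Of the 11 non-ATPase subunits, which form the base and lid of the cap and hold the ubiquitin receptor PSMD4 and the deubiquitinase PSMD14, 10 rose in DSF+NSM against DMSO, and 2 with equal sums. Of all genes tested 28.3% rose, and 11.4% with equal sums. PSMD11, a lid subunit, changed most. It had 2303, 2568 and 2552 in DMSO, 2499.7, 2600.2 and 2512 in DSF, 1970.4, 1833 and 1930.1 in NSM and 6244, 6603 and 5873 in DSF+NSM. NSM lay below and DSF+NSM above all other libraries, with changes of -0.37 ± 0.10 and 1.33 ± 0.10 (adjusted p = 0.00834 and 4.98e-07). PSMD12, another lid subunit, changed least, with 1181, 1219 and 1285 in DMSO, 702, 564 and 646 in DSF, 402, 488 and 1119 in NSM and 1493, 1339.8 and 1864 in DSF+NSM. It fell by 0.95 ± 0.29 in DSF (adjusted p = 0.0424) and by 1.02 ± 0.29 in NSM (adjusted p = 0.0118), and was 0.34 ± 0.29 above DMSO in the combination (adjusted p = 0.355), or -0.45 with equal sums. The DSF call of PSMD12 was lost without any single DMSO or DSF library and without DSF+NSM replicate 1 or 2, and without NSM replicate 3 its change in DSF+NSM passed the test at the same size. PSMD4 and PSMD8 were the non-ATPase subunits that rose in NSM (0.30 ± 0.11 and 0.31 ± 0.12, adjusted p = 0.0464 and 0.0419), and both calls were lost with equal sums, without any single DMSO or DSF library, without NSM replicate 1 and without DSF+NSM replicate 1 or 2. That of PSMD4 was also lost without NSM replicate 2.

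The 2 subunits of the cap that do not carry a PSM name both rose in the combination under the scaling of the authors. ADRM1, a ubiquitin receptor, had 1461, 1380.3 and 1378 in DMSO and 7060.5, 7237 and 5744 in DSF+NSM, a rise of 2.24 ± 0.15 (adjusted p = 2.55e-07). SHFM1, the small lid subunit also called SEM1, rose by 0.77 ± 0.15 (adjusted p = 0.000835), where equal sums gave -0.02. ADRM1 was 0.09 ± 0.15 from DMSO in NSM (adjusted p = 0.661), or -0.18 with equal sums.

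Over the 12 libraries, all 3 DSF+NSM values were above the other 9 for 29 of the 49 genes, beside 11.8% of all genes tested. These were 27 of the 31 constitutive subunits (5 of 7 alpha, 6 of 7 beta, 5 of 6 ATPases and 11 of 11 non-ATPase subunits), POMP and PSME4. With equal sums the number was 7 of 49, all of them 19S subunits, beside 4.93% of all genes tested. The 3 NSM values were below the other 9 for 14 genes, all constitutive subunits, beside 8.20% of all genes tested, and for 16 constitutive subunits with equal sums, beside 4.73%. For 12 genes both held, so that NSM was the lowest and DSF+NSM the highest group, beside 1.47% of all genes tested. With equal sums both held for 6, which were PSMC2, PSMC4, PSMD1, PSMD7, PSMD11 and PSMD13, beside 0.822%.

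The combination was also compared with each drug alone. Against DSF, 33 of the 49 genes rose and 5 fell, beside 21.7% and 21.4% of all genes tested, and equal sums gave 11 and 12, beside 7.30% and 53.8%. Against NSM, 33 rose and 4 fell, beside 20.3% and 18.3%, and equal sums gave 23 and 11, beside 9.83% and 44.9%. Of the constitutive subunits 30 of 31 rose against NSM (23 with equal sums), and PSMA4 was the exception at 0.48 ± 0.21 (adjusted p = 0.0908), which passed the test without NSM replicate 3 (0.77) and was -0.030 with equal sums. These comparisons share the DSF+NSM libraries with each other.

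The departure of the combination from the sum of the single changes on the log2 scale, the interaction of DSF and NSM, was above 0 with an adjusted p below 0.05 for 31 of the 49 genes and below 0 for 1. All genes tested gave 12.1% and 14.0%. With equal sums the numbers were 23 and 6, beside 6.81% and 28.6%. Of the 31 constitutive subunits 29 passed the test above 0 (22 with equal sums). The median constitutive interaction was 1.24, or 1.23 beyond the median of all genes tested. Its largest value belonged to PSMD1, the largest subunit of the cap, which was chosen after its values were seen. PSMD1 had 1608, 1508 and 1539 in DMSO, 1309, 1308 and 1284 in DSF, 588, 558 and 690.2 in NSM and 3251, 3159 and 2743 in DSF+NSM, with an interaction of 2.57 ± 0.17 (adjusted p = 5.13e-06). The shared DMSO libraries enter each term of this contrast.

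**Figure D4:**
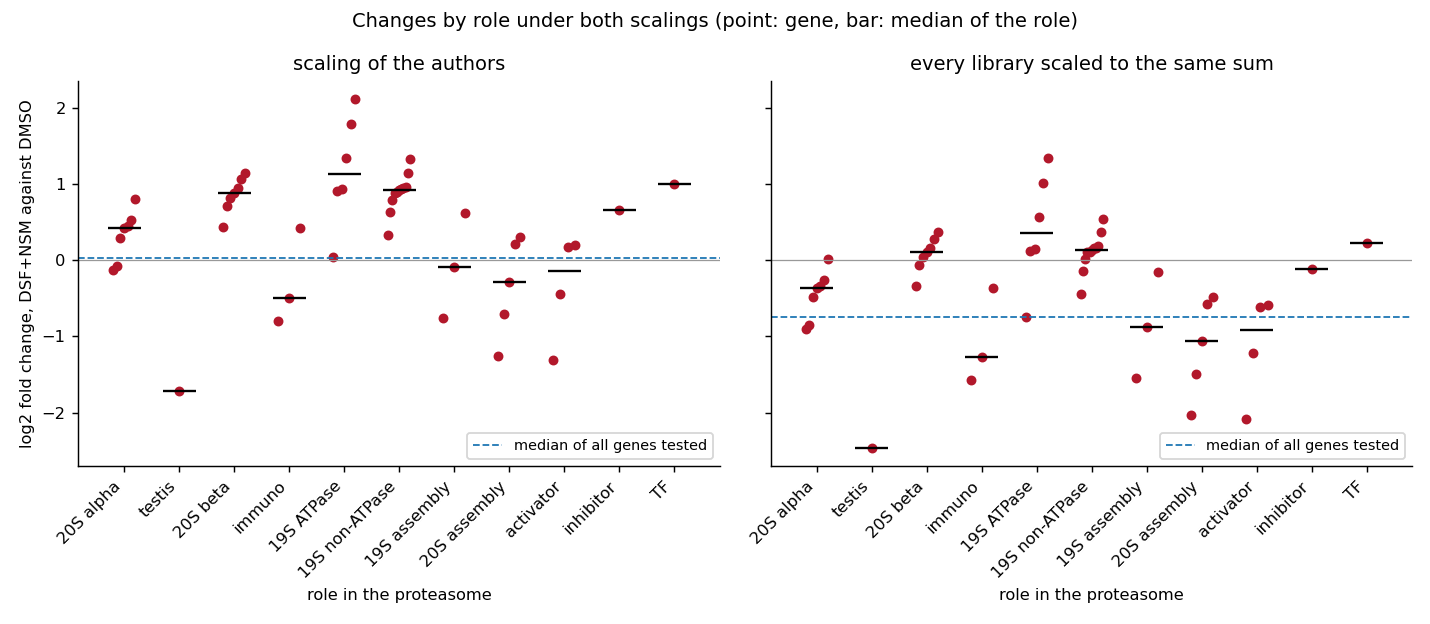
Log2 fold change of each gene in DSF+NSM against DMSO by role, with the median of the role as a bar and the median of all genes tested as a dashed line, under the scaling of the authors (left) and with every library scaled to the same sum (right). The dashed line moves from 0.03 to -0.74. The medians of the 20S alpha, 20S beta, 19S ATPase and 19S non-ATPase subunits stay above it under both, as do PSMF1 and NFE2L1. Those of the immunoproteasome, 20S assembly, 19S assembly and activator genes stay below it under both, as does PSMA8.

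Of the 5 assembly chaperones of the 20S core, 0 rose and 2 fell in DSF+NSM against DMSO, 1 rose and 3 fell in NSM, and 3 fell in DSF. All genes tested gave 28.3% and 24.5% in DSF+NSM, 25.4% and 23.7% in NSM and 11.9% and 5.95% in DSF. With equal sums 0 rose in any of these comparisons, and 5 fell in DSF+NSM, 3 in NSM and 3 in DSF. The shares of all genes tested that fell were then 56.1%, 33.4% and 9.24%. POMP, which completes the maturation of the 20S core, had 1825, 1733 and 1608 in DMSO, 926, 903 and 1138 in DSF, 1062, 1239 and 1429 in NSM and 2155, 2029 and 2191 in DSF+NSM. Both single treatments lay below DMSO and the combination above it, without overlap. POMP fell by 0.80 ± 0.14 in DSF (adjusted p = 0.00212) and by 0.48 ± 0.14 in NSM (adjusted p = 0.012, lost without DMSO replicate 1), and was 0.30 ± 0.14 above DMSO in DSF+NSM (adjusted p = 0.0792), which passed the test without NSM replicate 3 and was -0.48 with equal sums.

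PSMG4, a chaperone of the alpha ring, had 348, 328 and 314 in DMSO, 203, 269.7 and 262 in DSF, 118, 169 and 124 in NSM and 172, 167 and 90.6 in DSF+NSM. It lay below DMSO in every treated library and fell by 1.28 ± 0.24 in NSM and by 1.25 ± 0.24 in DSF+NSM (adjusted p = 0.001 and 0.000971). PSMG2, another of these chaperones, changed least in the combination, with 709.9, 664 and 623 in DMSO, 418, 451 and 523 in DSF, 744, 830.5 and 1062 in NSM and 739, 773 and 798 in DSF+NSM. Its combination value was 0.21 ± 0.15 from DMSO (adjusted p = 0.26), or -0.57 with equal sums. It fell in DSF (-0.52 ± 0.15, adjusted p = 0.0323) and rose in NSM (0.39 ± 0.15, adjusted p = 0.0499), and the call in DSF was lost without any single DMSO library or DSF replicate 1 or 2 and that in NSM without any single library other than NSM replicate 1 and with equal sums. PSMG1, the partner of PSMG2, was below DMSO in all 3 treatments (-0.92, -0.73 and -0.71), and each of these calls was lost without DMSO replicate 1 or 2. PSMG3 passed no test under the scaling of the authors and fell in DSF+NSM against DMSO with equal sums.

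Of the 3 chaperones of the 19S cap, 1 rose and 1 fell in DSF+NSM against DMSO, beside 28.3% and 24.5% of all genes tested. With equal sums 0 rose and 2 fell, beside 11.4% and 56.1%. PSMD5 was the 1 member with all DSF+NSM values below the 9 others, with 745, 719.9 and 753 in DMSO, 618, 574 and 572 in DSF, 690.4, 773 and 1396 in NSM and 406, 377 and 544 in DSF+NSM. It fell by 0.76 ± 0.23 against DMSO (adjusted p = 0.0141), a call lost without DSF+NSM replicate 2 (-0.65). PSMD9 rose by 0.63 ± 0.18 (adjusted p = 0.00945), where equal sums gave -0.16. PSMD10, which is also known as gankyrin, had 497, 508 and 535 in DMSO, 462, 396 and 397 in DSF, 510.5, 533 and 912 in NSM and 508, 414 and 532 in DSF+NSM, and passed no test under the scaling of the authors.

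The activators open the core without ubiquitin. Of the 4 of them 0 rose and 1 fell in DSF+NSM against DMSO, beside 28.3% and 24.5% of all genes tested. With equal sums 0 rose and 4 fell, beside 11.4% and 56.1%. PSME3, the nuclear activator, had 3437, 3763 and 4068 in DMSO, 2657, 2492 and 3024 in DSF, 1256, 1328 and 1921 in NSM and 1529, 1542 and 1480.0 in DSF+NSM. Every treated library was below DMSO, with a fall of 1.35 ± 0.16 in NSM and of 1.304 ± 0.16 in DSF+NSM (adjusted p = 2.46e-05 and 2.18e-05), and DSF+NSM was 0.04 ± 0.16 from NSM (adjusted p = 0.858). The change in DSF was -0.46 ± 0.16 (adjusted p = 0.0568), which passed the test without NSM replicate 1 or 3.

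PSME1 and PSME2 form the interferon-inducible cap. PSME1 had 2014, 2067 and 1988 in DMSO, 1876, 1948 and 1964 in DSF, 2516, 2496 and 2237 in NSM and 2415, 2366 and 2065 in DSF+NSM. PSME2 had 2476, 2390.1 and 2185 in DMSO, 1660.2, 1669 and 2078 in DSF, 1927, 1673 and 1174 in NSM and 2026, 1832 and 1399 in DSF+NSM. In NSM these partners lay on opposite sides of DMSO under the scaling of the authors. PSME2 fell by 0.59 ± 0.19 there (adjusted p = 0.0214, lost without DMSO replicate 1 or 2), and PSME1 was 0.25 ± 0.11 above DMSO (adjusted p = 0.0626), which passed the test without NSM replicate 3 or DSF+NSM replicate 3 and was -0.015 with equal sums.

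PSME4, the activator PA200, had 1288, 1317 and 1438 in DMSO, 1105, 1024 and 1149 in DSF, 1008, 1096 and 1429 in NSM and 1463, 1539.6 and 1651 in DSF+NSM. The combination was above all 9 others, but its change of 0.20 ± 0.14 against DMSO did not pass the test (adjusted p = 0.236), and with equal sums it was -0.58. PSMF1, an inhibitor of the 20S core, had 1963, 2126 and 2094 in DMSO, 2405, 2720.2 and 2596 in DSF, 3969, 3411 and 3213 in NSM and 3245, 3317 and 3267 in DSF+NSM. Each treated group was above DMSO, and it rose by 0.77 ± 0.11 in NSM and by 0.67 ± 0.11 in DSF+NSM (adjusted p = 0.000113 and 0.000261), the latter being -0.11 with equal sums.

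NFE2L1 had 1807, 2032 and 2183 in DMSO, 3299, 3537 and 3171 in DSF, 6075, 5446 and 5609 in NSM and 3282, 3904 and 5118 in DSF+NSM. All treated libraries were above DMSO, and NSM was the highest group, above DSF+NSM without overlap. It rose by 0.74 ± 0.15 in DSF, by 1.51 ± 0.15 in NSM and by 1.01 ± 0.15 in DSF+NSM (adjusted p = 0.00599, 7.83e-06 and 0.000124), where equal sums gave 0.23 in DSF+NSM, which did not pass the test. Under the scaling of the authors NFE2L1 was the 1 member whose interaction passed the test below 0, at -1.24 ± 0.21 (adjusted p = 0.00132). With equal sums 6 members did, NFE2L1 among them at -1.65, beside 28.6% of all genes tested. NSM, the group with the highest NFE2L1 transcript level, was also the group in which 16 constitutive subunits fell. These are transcript levels, and a link between them was not tested.

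**Figure D5:**
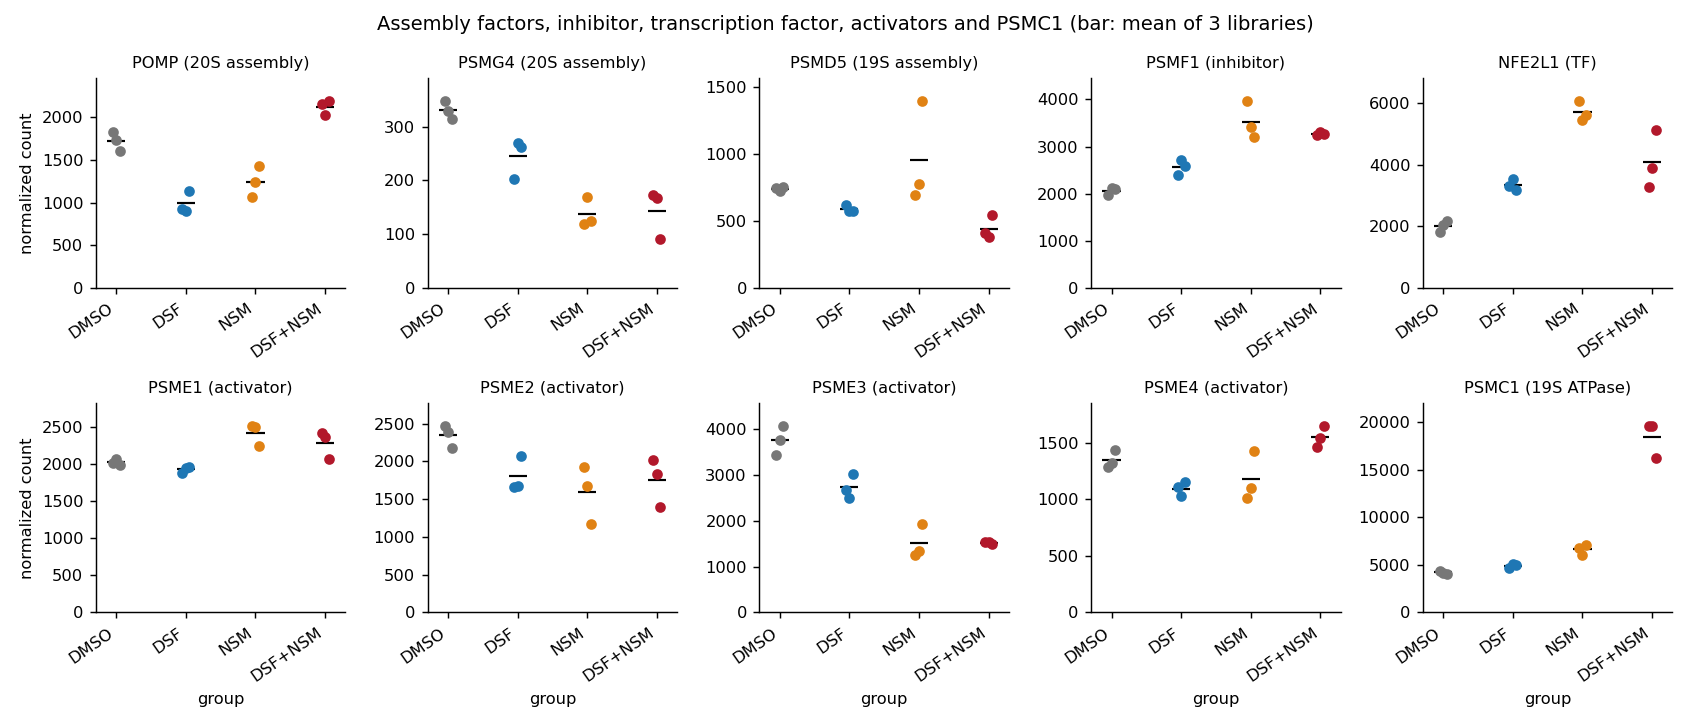
Normalized counts in each library of the 4 groups for assembly factors, the inhibitor, NFE2L1, the activators and PSMC1, with a bar for the mean of 3 libraries and axes from 0. NFE2L1 is highest in NSM, PSME3 and PSMG4 are low in NSM and DSF+NSM, and PSMC1 is highest in DSF+NSM, where its 3 values lie between 16197 and 19645.

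NFE2L1 protein is pulled from the endoplasmic reticulum by VCP, deglycosylated by NGLY1 and cut by DDI2. Of the 6 genes listed as acting on NFE2L1 or related to it, 3 rose and 2 fell in NSM, and 3 rose and 1 fell in DSF+NSM. Of all genes tested 25.4% rose and 23.7% fell in NSM, and 28.3% and 24.5% in DSF+NSM. With equal sums 2 rose and 2 fell in NSM, beside 16.4% and 33.4%, and 0 rose and 2 fell in DSF+NSM, beside 11.4% and 56.1%. VCP had 5607, 5801 and 6186 in DMSO, 3101, 2583 and 1773 in NSM and 11245, 10854 and 10205 in DSF+NSM, with a fall of 1.27 ± 0.17 and a rise of 0.88 ± 0.17 (adjusted p = 5.91e-05 and 0.000761), the latter 0.09 with equal sums, which did not pass the test. VCP was lowest in NSM and highest in DSF+NSM, as PSMD1 and PSMD11 were. DDI2, counted among 6 ubiquitin shuttle genes, had 39.8, 60.4 and 80.4 in DMSO, 12.8, 7.75 and 5.11 in NSM and 35.01, 21.6 and 17.8 in DSF+NSM, and fell by 2.70 ± 0.37 in NSM (adjusted p = 9e-05). Of those 6 genes, 2 rose and 3 fell in DSF+NSM, and 0 and 4 with equal sums, beside the same shares of all genes tested.

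Among 9 proteasome-associated genes, 4 rose and 2 fell in DSF+NSM against DMSO, beside 28.3% and 24.5% of all genes tested, and 4 rose and 2 fell in NSM, beside 25.4% and 23.7%. With equal sums 3 rose and 5 fell in DSF+NSM, and 3 rose and 4 fell in NSM, where 11.4% and 56.1% and then 16.4% and 33.4% of all genes tested did. ZFAND2A, a stress-induced protein that binds the 19S cap, had 129, 111 and 107 in DMSO, 1085, 1200.1 and 619 in DSF, 410.3, 384 and 436 in NSM and 9363, 9709.9 and 5523 in DSF+NSM. No library of a treated group overlapped with another group. It rose by 3.00 ± 0.25 in DSF, by 1.82 ± 0.25 in NSM and by 6.10 ± 0.25 in DSF+NSM (adjusted p = 1.04e-05, 0.000101 and 3.91e-09). AKIRIN2, which brings proteasomes into the nucleus, rose by 1.02 ± 0.11 in NSM and by 0.60 ± 0.11 in DSF+NSM (adjusted p = 1.5e-05 and 0.000606), the latter being -0.18 with equal sums.

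Per kilobase of the MANE transcript, PSMB4, PSMB3, PSMA7 and PSMB1 held the first 4 places among the members both in DMSO and in DSF+NSM. Their means in DMSO were 5355 ± 313, 4617 ± 317, 4025 ± 295 and 3489.9 ± 82.5 per kilobase (SD, n = 3). PSMC1 moved from place 30 in DMSO, at 958 ± 39.1 per kilobase, to place 7 in DSF+NSM, at a mean of 4206, and PSMB8 from place 19 to place 33. Neighbors in this order often lay within their spread, as PSMA6, PSMB7 and PSMA1 did at 2944 ± 83.1, 2906 ± 48.0 and 2904 ± 170 per kilobase in DMSO.

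In DSF+NSM against DMSO, as scaled by the authors, PSMB8 and PSMG4 of the 7 genes with GAAANNGAAA in their window fell. PSMB4 rose by 1.06 ± 0.21 (adjusted p = 0.00118), and PSMB10, PSME1, PSME2 and PSMA4 passed no test. With equal sums PSMA4, PSME1 and PSME2 fell as well, and PSMB4 and PSMB10 passed no test. Of all genes tested 56.1% then fell. PSMB9 held no such match. A match of letters is a description and not a binding site.

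The 7 constitutive subunits with TGACNNNGC had a median change of 0.72 in DSF+NSM against DMSO (from -0.07 to 1.80), and the 19 with a window and no match had 0.89 (from -0.12 to 2.13), so the ranges overlapped. Among the other members with these letters PSMD9 rose under the scaling of the authors, and PSMB9, PSMD5 and PSMG1 fell. PSME1, PSME2, PSME4 and PSMG2 passed no test in this comparison under that scaling. CCAAT was in 37.7% of the members' windows beside 34.6% of all, and GAANNTTC, the letters of a heat shock element, was in 0 of 53 beside 6.77%.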

How the data were processed

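RNA-seq was performed on 12 SHI-1 libraries (4 groups of 3, from independent experiments). The authors' supplement names poly(A) selection with the TruSeq RNA version 2 kit, STAR and Salmon on GRCh38 and DESeq2, whereas the submitters' processing notes name bcl2fastq 2.19, Trimmomatic, Bowtie2, Picard, featureCounts and DESeq2 on hg38. Each library has 1 deposited table of signal values, which are counts scaled by the authors and not whole reads, since 30.4% to 31.0% of the values above 0 were whole multiples of the value of 1 read (within 0.001). Raw counts were not analysed here. The table headers name 24 libraries, of which 12 were used.

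Genes with at least 10 in at least 3 of 12 libraries were tested in limma 3.58.1 (R 4.3.3) on log2(value + 1), with trend and robust empirical Bayes, all 12 libraries in 1 fit and Benjamini-Hochberg adjustment over 13502 genes, at a threshold of 0.05. The step was tested on simulated data. A fold change on this scale understates the change of low genes. Same-numbered libraries correlated above 0.1 in 2 of 18 pairs, so the numbers were not used to pair. Named genes are the catalytic pairs, POMP, NFE2L1, the activators, PSMF1 and, in each other role, the members with the largest and the smallest change in DSF+NSM against DMSO. Others are named for a stated reason. The members, lists and markers were chosen with earlier results of these data known. Erythroid markers and PSMB11 were not analysed here. Positions are from GENCODE 44, by which 18 members have a named pseudogene, 9 share exon bases with a gene on the same strand and 21 with an antisense gene, and their values are less certain. Alternatives were other scalings, filters, pseudocounts of 0.1 and 10, libraries in the fit, a replicate block, library weights and each library left out.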

Additional observations from a re-analysis of the deposited data

Results flagged for a closer look

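The effect of NSM differed with and without DSF, by the interaction term in limma, for 32 of the 49 genes. Of these 31 were above 0 and 1 below, beside 12.1% and 14.0% of all genes tested. With equal sums 23 were above 0 and 6 below, beside 6.81% and 28.6%. For genes named by the rule, the interaction on the log2 scale was 1.40 for PSMA4, 1.05 for PSMA7, 1.72 for PSMB2, 0.97 for PSMB5, 0.81 for PSMB6, 1.18 for PSMB7, 1.26 for PSMC1, 0.72 for PSMC3, 1.67 for PSMD11, 2.31 for PSMD12, 0.71 for PSME4 and 1.59 for POMP, and it was -1.24 for NFE2L1. With equal sums those of PSMA7, PSMB5, PSMB6, PSMC3 and PSME4 did not pass the test. The call of PSMB6 was lost without DMSO replicate 1 or 2, DSF replicate 1 or 3 and DSF+NSM replicate 1 or 2, and that of PSME4 without DSF replicate 2. The others in this list kept their call whichever library was left out.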

How the results depend on the processing

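With every library scaled to the same sum, 67 changes of members and related genes turned sign. The 35 that passed the test under at least 1 of these scalings were, against DMSO, in DSF+NSM PSMA1 (-0.26), PSMA2 (-0.36), PSMA5 (-0.48), PSMA6 (-0.34), PSMB2 (-0.34), PSMB3 (-0.064), PSMC3 (-0.74), PSMD3 (-0.14), PSMD9 (-0.16), PSME1 (-0.61), PSME4 (-0.58), PSMF1 (-0.11), PSMG2 (-0.57), POMP (-0.48), SHFM1 (-0.016) and AKIRIN2 (-0.18), and in NSM PSMA6 (-0.26). Against DSF they were, in DSF+NSM, PSMA5 (-0.24), PSMB2 (-0.012), PSMB6 (-0.014), PSMB7 (-0.064), PSMC3 (-0.66), PSMD2 (-0.28), PSMD3 (-0.14), PSMD8 (-0.068), PSMD9 (-0.50), PSME1 (-0.45), PSME4 (-0.18), PSMF1 (-0.34), AKIRIN2 (-0.18), TAP1 (-0.65) and HLA-E (-0.087), and against NSM PSMA6 (-0.075), PSME3 (-0.47) and PSME4 (-0.10). The other 32 passed it under neither, such as PSMB10 (-0.36), PSMD12 (-0.45) and TAP1 (-0.19) in DSF+NSM against DMSO. The genes called in DSF+NSM against DSF then numbered 23, and the constitutive subunits 11 against DMSO and 11 against DSF. Scaling to equal sums lowers every DSF+NSM value by construction, relative to the scaling of the authors. Under the scaling of the authors 1 read was worth 1.54 to 2.22 in DSF+NSM and 0.76 to 0.98 in DMSO. Which of these scalings is closer to the RNA of the cells was not tested. A fit of only the groups compared called 36 members (23 constitutive) in DSF and 17 (12 constitutive) in NSM. Of all 13502 genes tested it called 7289 and 5079. Library weights, whose estimation stopped before it converged, called 38 (24 constitutive) in DSF and 42 in NSM. Of all 13502 genes tested they called 8171 and 11107. They turned the sign of PSMB4 (0.12), PSMB5 (0.15), PSMB8 (0.20) and PSMB9 (0.21) in NSM against DMSO. The sign of PSMB10 also turned in DSF+NSM against NSM (-0.25) and in the interaction (-0.57), beside 15 changes that passed no test either way. The interaction of PSMB10 also turned without NSM replicate 3 (-0.52), and with each library left out it ran from -0.52 to 0.36, while the other signs that turned with a library left out belonged to changes that passed no test either way. With 1 library left out, the members called ranged from 3 to 30 in DSF and from 17 to 30 in NSM. The constitutive subunits ranged from 1 to 18 in DSF. Over all genes tested the calls ranged from 911 to 5551 in DSF and from 5421 to 8075 in NSM. The cause was not tested. Median-of-ratios and trimmed-mean scaling turned 4 and 3 signs of changes that passed no test, at most 0.038 in size, and the filters, pseudocounts, block and fits of only the groups compared turned none. The other scalings, filters and pseudocounts moved no count of members or constitutive subunits by over 1.5 times. With the replicate number as a block, 13 members were called for DSF and 27 for NSM, 36 for DSF+NSM against DMSO, 38 against DSF, 37 against NSM and 33 for the interaction, and since only 2 of 18 same-numbered pairs correlated above 0.1 the numbers were not taken as pairs. Groups of 3 libraries and estimated depths from 10.2 to 19.03 times 1000000 reads limit what could be detected among low genes such as PSMA8.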
